A study of Mus musculus with 12 samples.

Results

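The genes considered here encode subunits of the transcription factor AP-1 and its closest basic leucine zipper (bZIP) relatives: Fos, Fosb, Fosl1, Fosl2, Jun, Junb, Jund, Batf, Atf3 and Maff. A peak of open chromatin was counted with one of these 10 genes when its nearest protein-coding gene span, within 100 kb, was that gene. By this rule 128 of 95734 peaks were theirs, namely 27, 31, 28 and 42 in the lists of the groups CDM-CDO, WDM-CDO, CDM-WDO and WDM-WDO. Where peaks of different lists overlapped they were merged, which gave 43 regions of 41492 that lay within 100 kb of any of 21631 protein-coding genes. The farthest of the 43 lay 58.5 kb from its gene. Beyond the limit, the nearest was a region 108.8 kb upstream of Jun, called in all 4 lists with 61, 101, 70 and 46 reads at its summit.

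The assay was ATAC-seq, which uses a transposase to insert sequencing adapters where DNA is open, and the cells were mouse aortic endothelial cells (MAECs), the inner lining of the aorta. The 8 ATAC-seq samples formed 4 groups of 2, named after the diet of the mothers and that of the offspring: CDM-CDO (CD in both), WDM-CDO (WD mothers, CD offspring), CDM-WDO (CD mothers, WD offspring) and WDM-WDO (WD in both). The labels give the diets as CD and WD only, and the title of the series speaks of a high-fat diet of the mothers. Offspring of both WDO groups had been put back on WD for 4 weeks. Strain, genotype, age and the number of animals behind a sample are not given in the sources used here. Each group had 1 peak list, so there were no replicates and no tests, and a difference between 2 lists compares these lists and not the diets. In both CDO lists the peak names carry the tag 08w and in both WDO lists 12w. The labels do not explain these tags, and whatever they stand for cannot be told apart from the diet of the offspring. In such bulk material, more cells with an open region and a more open region per cell cannot be told apart either.

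AP-1 is a dimer of bZIP proteins that binds the palindrome TGANTCA. Fos proteins bind DNA only in a dimer with a partner, most often a Jun protein, whereas Jun proteins also pair with each other. Fos, Fosb, Jun, Junb and Atf3 are classic early response genes, switched on within minutes of a stimulus through MAP kinases acting on serum response factor, ternary complex factors and ATF proteins. In the endothelium AP-1 is known for its response to cytokines and disturbed flow and for driving adhesion molecule, chemokine and protease genes.

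The promoters of these genes are shown first, since a peak overlapped them in all 4 lists for most of the genes. The RefSeq promoter table of GRCm38.p6 matched 9 of the 10 genes, with 11 starts, and Fosl1 was not matched. The 250 bases before the start follow for 5 of them, each 5′ to 3′ on the strand of its gene, with motifs that contain the core of the cAMP response element or the Jun/ATF-type site in capitals. The window of Fos lies at chr12:85473640-85473889, plus strand, Jun at chr4:95052223-95052472, minus strand, Atf3 at chr1:191183334-191183583, minus strand, the second listed start of Maff at chr15:79347270-79347519, plus strand and Batf at chr12:85686470-85686719, plus strand.
Fos: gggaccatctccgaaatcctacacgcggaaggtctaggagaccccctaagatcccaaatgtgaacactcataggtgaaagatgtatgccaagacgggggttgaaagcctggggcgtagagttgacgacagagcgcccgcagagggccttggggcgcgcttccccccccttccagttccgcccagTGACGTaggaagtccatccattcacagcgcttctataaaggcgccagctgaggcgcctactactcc
Jun: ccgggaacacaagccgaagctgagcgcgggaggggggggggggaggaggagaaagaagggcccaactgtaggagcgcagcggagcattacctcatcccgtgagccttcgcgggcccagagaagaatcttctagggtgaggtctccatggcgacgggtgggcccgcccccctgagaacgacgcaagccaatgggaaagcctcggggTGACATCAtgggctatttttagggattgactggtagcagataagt
Atf3: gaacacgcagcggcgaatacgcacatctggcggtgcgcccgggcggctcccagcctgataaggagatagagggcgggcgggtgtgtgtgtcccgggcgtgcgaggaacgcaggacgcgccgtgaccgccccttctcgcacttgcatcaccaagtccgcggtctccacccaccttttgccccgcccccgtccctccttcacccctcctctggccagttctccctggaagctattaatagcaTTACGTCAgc
Maff: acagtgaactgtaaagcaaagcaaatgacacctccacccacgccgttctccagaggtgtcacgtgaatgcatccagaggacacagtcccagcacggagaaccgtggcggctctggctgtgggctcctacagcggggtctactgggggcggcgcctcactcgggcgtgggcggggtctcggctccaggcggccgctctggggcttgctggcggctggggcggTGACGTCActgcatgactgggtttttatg
Batf: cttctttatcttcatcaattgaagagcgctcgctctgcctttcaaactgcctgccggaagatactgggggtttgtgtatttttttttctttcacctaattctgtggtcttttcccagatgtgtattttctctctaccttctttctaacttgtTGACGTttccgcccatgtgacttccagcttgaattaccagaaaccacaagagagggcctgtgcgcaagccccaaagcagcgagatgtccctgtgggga

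These windows were searched on both strands for 8 motifs. TGACGT, the core of the cAMP response element through which CREB and ATF proteins act, was in those of Fos, Batf, Atf3 and Maff, and in 6.47% of the 32851 promoters of the table. In Fos it began 66 bases before the start, with the TATA box TATAAA (12.4% of all promoters) 33 bases before it. The full element TGACGTCA, which overlaps this core, was in Maff alone of the 11 windows (1.55% of all), 29 bases before the second start. TGACNTCA, the Jun/ATF-type site, was in Jun as TGACATCA, 45 bases before the start, and in the windows of the second and the last start of Maff (7.49% of all). TTACGTCA was in Atf3 (0.447% of all), 10 bases before the start. The AP-1 palindrome TGANTCA was in none of the 11 (6.75% of all), nor was the serum response element (CArG box, 1.47% of all). CCAAT was in Jun and Junb (33.8% of all). The 11 windows were GC-rich, with a median GC content of 61.2% and 15 CpG dinucleotides, against 52.4% and 6 over the whole table. A motif is a match of letters and no measured binding, and elements farther upstream lie outside these windows.

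A peak in all 4 lists overlapped the window of Fos, Fosb, Fosl2, Jun, Junb, Atf3 and the second and the last start of Maff. The window of Batf was overlapped in 3 lists, only in part in WDM-CDO and WDM-WDO, and in CDM-WDO no peak reached it. No peak overlapped the window of Jund or of the first start of Maff, where the summits lay 1097 to 1140 and 1105 to 1170 bases away, inside the gene. With a peak within 1 kb of either gene end as the measure, here called a gene-end peak, the 10 genes had one in 10, 10, 9 and 10 cases in the order CDM-CDO, WDM-CDO, CDM-WDO and WDM-WDO. Of all protein-coding genes 48.1%, 51.2%, 40.2% and 47.6% had one. The exception was Batf in CDM-WDO. Fosl1 was counted in CDM-WDO through a peak inside the gene that did not cover the gene end.

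**Figure D1:**
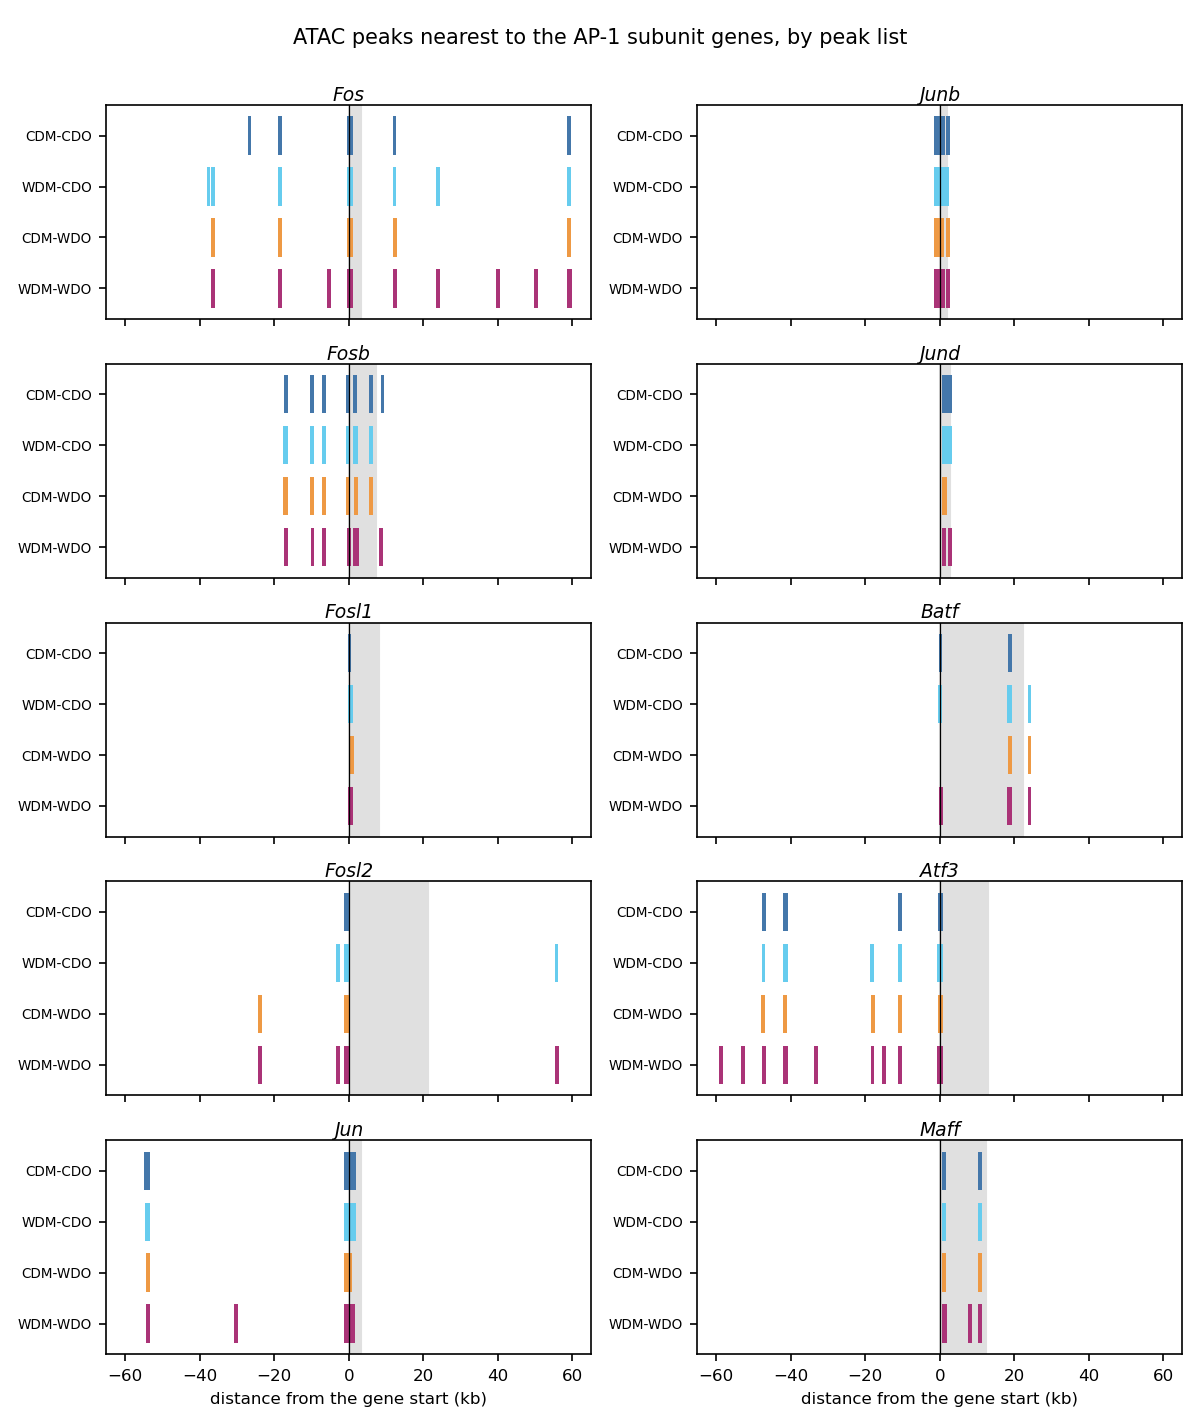
Peaks assigned to each of the 10 genes, by distance from the gene start in kb (negative is upstream). Each bar is 1 peak, drawn to its width or, where narrower than 1 kb, widened to 1 kb. Each row is 1 list, and the grey band is the gene span. A peak lies within 1 kb of a gene end in every row but for Batf in CDM-WDO, while Fos and Atf3 have more bars in the WDM-WDO row than in any other.

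The 43 regions were called in a larger share than all regions in every list, and in the largest in WDM-WDO. Present were 26 of 43 in CDM-CDO (60.5%, 95% Wilson interval 45.6 to 73.6%, against 49.0% of all regions near genes) and 31 in WDM-CDO (72.1%, 57.3 to 83.3%, against 62.5%). CDM-WDO had 27 (62.8%, 47.9 to 75.6%, against 39.8%) and WDM-WDO had 40 (93.0%, 81.4 to 97.6%, against 58.5%). The interval of CDM-CDO and that of WDM-CDO hold the background, and those of both WDO lists lie above it. All intervals cover counting error only. They treat regions as independent, although Fos and Atf3 hold 11 and 9 of the 43. How far the strength of these regions, given below, sets these shares was not tested. WDM-WDO lacked only 3 of the 43: 2 upstream of Fos and 1 inside Fosb. In the same list, 11 of 12 markers of macrophages and monocytes had a peak at a gene end, against 3 or 4 in the other lists, and the part of such cells in the counts of AP-1 regions was not tested.

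In all 4 lists, 22 regions were present (51.2%, 36.8 to 65.4%), against 24.6% of all. Of the other 21, 9 were in WDM-WDO and no other list (20.9% of the 43, against 17.8% of all regions). CDM-CDO alone held 1 (8.08% of all), WDM-CDO alone held 1 (16.1% of all) and CDM-WDO alone held 0 (8.33% of all). A further 3 were in both WDM lists and no other, 3 in every list but CDM-CDO, 1 in both WDO lists, 1 in every list but CDM-WDO, 1 in every list but WDM-WDO, and 1 in CDM-CDO and WDM-WDO.

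How often a region recurred went with its strength, measured as its highest scaled pileup. A pileup is the number of reads stacked at the summit, recovered from the authors' fold enrichment and −log10 p, and scaled pileups were divided by 0.915, 1.35, 0.751 and 1.09 in CDM-CDO, WDM-CDO, CDM-WDO and WDM-WDO so that strong regions shared by all lists have the same typical value. Among the strongest 10% of all regions near genes were 19 of the 43, and 19 of these 19 were in all 4 lists, as were 94.9% of all regions of that strength. Of the 8 regions in the next class, 75 to 90%, 2 were in all 4 lists against 69.2% of all, and of the 12 in the class from 50 to 75% it was 1 against 17.7%. In both classes the regions of these genes recurred in a smaller share than those of all genes, though the counts are small. By position, 9 of 11 regions at gene ends were in all 4 lists (81.8%, 52.3 to 94.9%, against 58.8% of all), and 13 of 32 elsewhere (40.6%, 25.5 to 57.7%, against 10.9%). Over 10 kb from the gene lay 21 regions, of which 8, 12, 10 and 19 were called in the lists from CDM-CDO to WDM-WDO. As shares these are 38.1%, 57.1%, 47.6% and 90.5%, against 33.1%, 50.4%, 31.4% and 46.2% of the 8770 such regions of all genes.

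**Figure D2:**
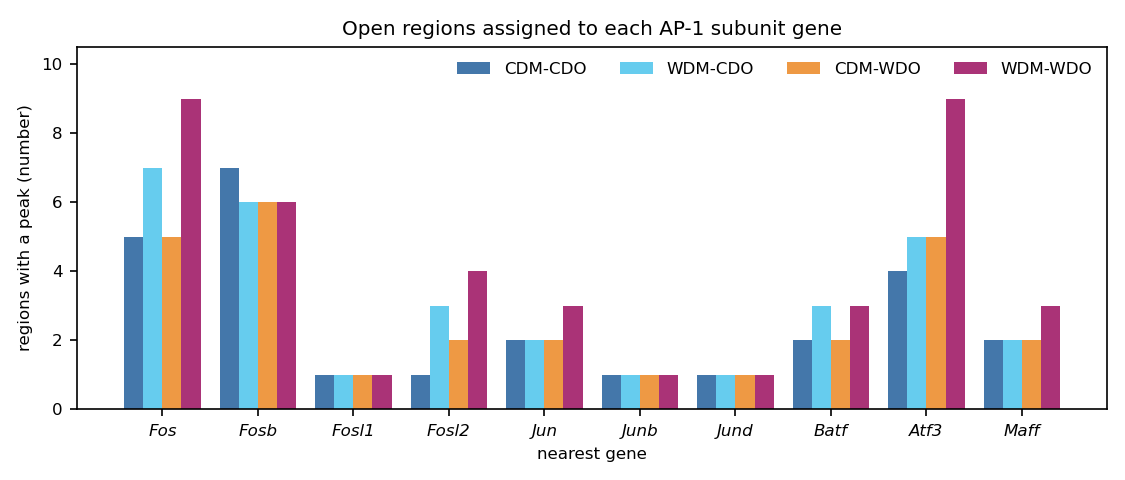
Number of regions with a peak assigned to each gene (vertical axis), with 1 bar per list. Fos and Atf3 reach 9 regions in WDM-WDO, Fosb has 7 in CDM-CDO and 6 in the other lists, and Fosl1, Junb and Jund have 1 in each list.

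Fos encodes the founding member of the Fos family. It had 11 regions, of which 5, 7, 5 and 9 were called in the order CDM-CDO, WDM-CDO, CDM-WDO and WDM-WDO, which is kept below. The strongest region of the gene lay not at its start but 18.5 kb upstream (chr12:85454950-85456075). Its pileup was 209, 386, 207 and 311 reads. By −log10 q, which was 122, 244, 120 and 199, only 1.15%, 0.35%, 0.649% and 0.244% of the peaks of each list ranked above it. After scaling it stood at 228, 286, 276 and 285 reads, lowest in CDM-CDO and nearly level in the others. Its summits in the 4 lists lay within 42 bp of one another.

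The start of Fos (chr12:85473425-85475059) carried 190, 327, 156 and 255 reads in the same order, or 208, 242, 208 and 234 after scaling. A region 12.2 kb downstream, past the end of the gene, had 116, 180, 90 and 127 reads. Both were close to level between lists. A region 59.2 kb downstream had 45, 85, 70 and 94 reads. Scaled, that is 49.2, 63.0, 93.2 and 86.1, with both WDO lists above both CDO lists.

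The other 7 regions of Fos were missing from at least 1 list. The highest pileup among them was 80 reads, 5.0 kb upstream in WDM-WDO and no other list (−log10 q 13.4). Regions 40.0 and 50 kb downstream were also in WDM-WDO alone, with 27 and 36 reads. One 24.1 kb downstream was in both WDM lists, with 33 reads in WDM-CDO and 39 in WDM-WDO, and one 36.4 kb upstream was in every list but CDM-CDO, with 32, 25 and 42 reads. Going the other way, a region 37.6 kb upstream was in WDM-CDO alone (47 reads, −log10 q 12.5) and one 26.7 kb upstream in CDM-CDO alone (24 reads, −log10 q 4.19). Fos therefore had regions private to 3 of the 4 lists.

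Fosb encodes a Fos protein that also occurs as a shorter, long-lived form known as ΔFosB. It had 7 regions, of which 7, 6, 6 and 6 were called and 5 were in all lists, so that CDM-CDO and not WDM-WDO held the most. At its start (chr7:19309724-19310468) stood 77, 136, 77 and 106 reads. Inside the gene, 1.6 kb from the start, there were 112, 161, 75 and 129. Upstream, at 9.9 kb, the pileup was 88, 166, 88 and 151. After scaling, the lists spanned 84.2 to 103 at the start, 99.9 to 122 inside the gene and 96.2 to 138 upstream.

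Other regions of Fosb were less even. At 6.5 kb upstream the pileup was 48, 90, 66 and 105, which is 52.5, 66.7, 87.9 and 96.2 after scaling, so both WDO lists were above both CDO lists. At 17.0 kb upstream it was 66, 89, 74 and 69, and the scaled values of 72.1, 66, 98.5 and 63.2 set CDM-WDO above the other lists. A region inside the gene, 6.0 kb from the start, was in every list but WDM-WDO, with 60, 83 and 56 reads. Its −log10 q was 3.48 to 4.18, and its local background was high, at 26.9 to 47.7 reads.

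Fosl1, which encodes Fra-1, had 1 region (chr19:5447510-5448901), present in all lists and weak, with 36, 50, 27 and 50 reads. Its summit was within 110 bp of the lower-coordinate gene end in 3 lists, whose peaks covered that end. In CDM-WDO the peak (chr19:5448283-5448845) did not reach that end and had its summit 1031 bp inside the gene. The CDM-WDO reads thus come from another site of the region. Fosl2, which encodes Fra-2, had 4 regions, of which 1, 3, 2 and 4 were called. That at its start (chr5:32135118-32136544) held 196, 325, 156 and 231 reads, level after scaling at 208 to 241. The other 3 regions of Fosl2 were absent from CDM-CDO. One 55.7 kb downstream was in both WDM lists (53 and 47 reads), as was one 2.9 kb upstream (97 and 74 reads over a local background of 53.3 and 38.4), and one 23.8 kb upstream was in both WDO lists (26 and 29 reads).

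Jun encodes c-Jun, the strongest activator of the Jun family. Its start (chr4:95050224-95053443) carried 217, 368, 232 and 298 reads, or 237, 273, 309 and 273 scaled. A second region in all lists, 53.9 kb upstream, had 43, 65, 37 and 82 reads. Scaled, that is 47.0, 48.2, 49.3 and 75.1, so WDM-WDO stood apart from 3 nearly equal lists. The summits lay up to 897 bp apart, so these reads may come from different sites of the region. A region 30.5 kb upstream was in WDM-WDO alone (35 reads, −log10 q 6.63).

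Junb and Jund encode Jun proteins that are weaker activators than c-Jun in many settings. Each had 1 region, in all lists. The Junb region (chr8:84976121-84980273) had 181, 294, 184 and 302 reads, or 198, 218, 245 and 277 scaled, lowest in CDM-CDO and highest in WDM-WDO. The Jund region (chr8:70698377-70701019) had 252, 455, 238 and 263 reads, or 275, 337, 317 and 241 scaled. Here WDM-WDO was the lowest of the 4, unlike at Junb.

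Batf encodes a bZIP protein without an activation domain that pairs with Jun proteins, chiefly in lymphoid and myeloid cells. Its start (chr12:85686404-85687669) was called with 32 reads in CDM-CDO, 34 in WDM-CDO and 53 in WDM-WDO, but had no call in CDM-WDO. Had it been as strong in CDM-WDO as its scaled value in WDM-WDO, 36.5 reads were to be expected there, where 21 sufficed for a call. From CDM-CDO the expectation was 26.3 against 18 needed. The scaled value was lowest in WDM-CDO, at 25.2 against 35.0 in CDM-CDO and 48.5 in WDM-WDO, and no expectation was computed from it. Both levels take local background to scale like the pileup and may be too low. A region in the gene body, 18.9 kb from the start, had 82, 118, 86 and 132 reads and was in all lists. One 24.1 kb from the start, just past the end of the gene, was in every list but CDM-CDO (42, 34 and 59 reads).

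Atf3 encodes a stress-induced bZIP protein that represses as a homodimer and can activate when paired with Jun. It had 9 regions. All 9 were called in WDM-WDO, 4 in CDM-CDO, 5 in WDM-CDO and 5 in CDM-WDO, and all but the one at the start lay upstream. The start (chr1:191182449-191184130) had 127, 210, 196 and 225 reads. Scaled values of 139, 156, 261 and 206 put both WDO lists above both CDO lists, with CDM-WDO highest.

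The clearest difference between lists at a shared region of these genes was 47.3 kb upstream of Atf3 (chr1:191230091-191230939). It had 22, 40, 49 and 97 reads, or 24.1, 29.7, 65.3 and 88.8 scaled. Both WDO lists thus stood above both CDO lists, and within each offspring diet the WDM list was the higher. The maternal ratios were within counting error, at 1.23 (0.716 to 2.18) for CD offspring and 1.36 (0.956 to 1.96) for WD offspring. At 41.3 kb upstream there were 92, 147, 93 and 163 reads (101, 109, 124 and 149 scaled), in the same order, and at 10.6 kb upstream 59, 93, 53 and 102 (64.5, 69.0, 70.6 and 93.4 scaled). The maternal ratios at both of these regions were within counting error too.

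The other regions of Atf3 were weaker. One 18.0 kb upstream was in every list but CDM-CDO, with 35, 29 and 57 reads. Regions 14.9, 33.0, 52.8 and 58.6 kb upstream were in WDM-WDO and no other list, with 54, 35, 22 and 26 reads and −log10 q of 7.0, 8.40, 2.34 and 3.38. The 2 farthest of these were close to the weakest peaks of the list, whose lowest pileup was 16.

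Maff encodes a small Maf protein, which lacks an activation domain and pairs with Nrf2 and Bach proteins as well as with itself. It had 3 regions. Over its second and last start (chr15:79347098-79348467) stood 190, 296, 168 and 246 reads, level after scaling at 208 to 225. A region 10.9 kb from the first start, inside the gene, had 54, 104, 61 and 112 reads, or 59.0, 77.1, 81.2 and 103 scaled. Between them, at 8.3 kb, lay the strongest region in WDM-WDO alone (chr15:79354515-79355013), with 94 reads and a −log10 q of 20.8.

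The maternal diet was compared first, in offspring on CD. Of the 33 regions in either list, 7 were in WDM-CDO and not in CDM-CDO (21.2%, 10.7 to 37.8%), against 32.3% of all regions near genes. In the other direction it was 2 (6.06%, 1.68 to 19.6%), against 13.7%. The intervals of both shares hold the background. The 7 fell to Fos (3), Fosl2 (2), Batf (1) and Atf3 (1), none at a gene end. The highest −log10 q values were those 55.7 kb downstream of Fosl2 (13.5), 37.6 kb upstream of Fos (12.5) and 24.1 kb from the start of Batf (8.89). The 2 in CDM-CDO only lay 26.7 kb upstream of Fos (4.19) and 9.2 kb from the start of Fosb, past its 3′ end (3.39).

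The same comparison followed in offspring returned to WD. Of 41 regions, 14 were in the WDM-WDO list but not the CDM-WDO list (34.1%, 21.6 to 49.4%, against 42.8% of all), and 1 was in CDM-WDO without a counterpart in WDM-WDO (2.44%, 0.432 to 12.6%, against 15.9%). The 14 were spread over 7 genes, with 4 each at Fos and Atf3, 2 at Fosl2 and 1 each at Fosb, Jun, Batf and Maff. The highest −log10 q values were inside Maff (20.8), at the start of Batf (13.7) and 5.0 kb upstream of Fos (13.4). The region the other way was the one 6.0 kb inside Fosb. The gain in WDM-WDO was thus no larger a share than over all genes, and the share lost lay below the background.

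The diet of the offspring was compared within each maternal diet; these comparisons use the same 4 lists again and are not independent of the first 2. Of 30 regions, 4 were in CDM-WDO and not in CDM-CDO (13.3%, 5.31 to 29.7%, against 21.4%), and 3 in CDM-CDO and not in CDM-WDO (10%, 3.46 to 25.6%, against 36.2%). The 4 were 1 each at Fos, Fosl2, Batf and Atf3, with at most 34 reads; the highest −log10 q was 4.69, 24.1 kb from the start of Batf. The 3 were the start of Batf (7.08), the CDM-CDO region upstream of Fos and the region past the end of Fosb. With WD mothers, 11 of 42 were in WDM-WDO and not in WDM-CDO (26.2%, 15.3 to 41.1%, against 24.9%), and 2 in WDM-CDO and not in WDM-WDO (4.76%, 1.32 to 15.8%, against 29.7%). The 11 included 4 at Atf3 and 3 at Fos, led by the region inside Maff (20.8), that 5.0 kb upstream of Fos (13.4) and that 33.0 kb upstream of Atf3 (8.40). The 2 were those 37.6 kb upstream of Fos and inside Fosb. In both comparisons, a smaller share of regions of these genes than of all genes was missing from the WDO list. How far the strength of these regions, given above, sets these low shares was not tested.

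**Figure D3:**
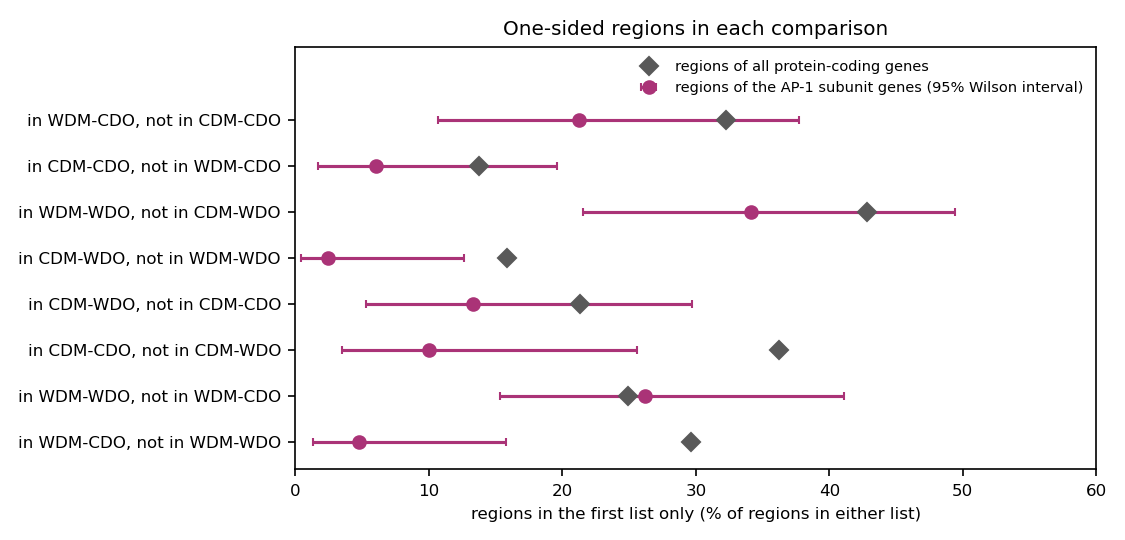
Regions in 1 list and not in the other, in percent of regions in either list; circles with 95% Wilson intervals are the regions of the 10 genes and diamonds those of all protein-coding genes. The circles lie below the diamonds in all rows but WDM-WDO against WDM-CDO (26.2% against 24.9%), and in 3 rows the diamond is beyond the interval.

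The lists differ in scaling factor and in background, so each region missing from a list was set against the pileup needed for a call there. If it had been as strong there after scaling, the region would have reached that level in 7 of 7 cases for WDM-CDO over CDM-CDO, 12 of 14 for WDM-WDO over CDM-WDO and 11 of 11 for WDM-WDO over WDM-CDO. Of the regions of all genes called on the same side, 56.7%, 70.2% and 100% would have reached it. The last count was fixed in advance and tells nothing. Where the other list has the larger scaling factor, pileup and background are both scaled up and every called region reaches the level. The same holds for each 100% given below. The level would have been passed by 1.5 times in 2, 4 and 5 cases, against 7.44%, 15.1% and 29.1% of all such regions. In the opposite directions of these comparisons, 2 of 2 regions of CDM-CDO missing from WDM-CDO, 1 of 1 of CDM-WDO missing from WDM-WDO and 2 of 2 of WDM-CDO missing from WDM-WDO reached it (100%, 100% and 72.2% of all), and 1, 0 and 1 passed it by 1.5 times (25.6%, 25.2% and 18.5%). Between the CDM lists, 4 of 4 regions missing from CDM-CDO and 3 of 3 missing from CDM-WDO reached it (100% and 78.5%), and 0 of either passed it by 1.5 times (19.5% and 26.4%). The 5 cases of WDM-WDO over WDM-CDO are the regions inside Maff, 5.0 kb upstream of Fos, and 14.9 and 33.0 kb upstream of Atf3, and that 30.5 kb upstream of Jun. The 4 of WDM-WDO over CDM-WDO are inside Maff, at the start of Batf, 5.0 kb upstream of Fos and 33.0 kb upstream of Atf3. The 2 of WDM-CDO over CDM-CDO are 37.6 kb upstream of Fos and 55.7 kb downstream of Fosl2. In the opposite directions they are 26.7 kb upstream of Fos (CDM-CDO) and 37.6 kb upstream of Fos (WDM-CDO). Regions that did not pass the level by 1.5 times lay nearer to what the other list could call. Their absence there cannot be told from a peak just under the threshold. For the level, local background was scaled like the pileup. Genome background differed less, at 6.08 reads in WDM-WDO and 5.49 in CDM-WDO, against scaling factors of 1.09 and 0.751. For WDM-CDO and CDM-CDO it was 5.59 and 4.84, against 1.35 and 0.915. The levels in CDM-WDO and CDM-CDO may thus be too low. Cases just above them, such as 2.9 kb upstream of Fosl2 in CDM-WDO (50.9 reads against 46), are open. With peaks assigned only within 10 kb of a gene, which leaves out the distal regions, the 7, 14 and 11 became 2, 5 and 3.

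At regions in all 4 lists the pileups themselves were compared, over 22 regions of these genes and 8607 of all that were at least as strong as the weakest of the 22. Beyond that limit the sets were not matched in strength. For WDM-CDO over CDM-CDO the median log2 ratio was 0.17, against -0.03 over all, with 18 of 22 above 0 (45.4% of all). A ratio past 1.5-fold was seen at 0 of 22 in either direction (0.848% of all were higher and 1.89% lower). For WDM-WDO over CDM-WDO the median was 0.10 against 0.03, with 15 of 22 above 0 (52.9% of all). The region 53.9 kb upstream of Jun was 1.52-fold higher (counting interval 1.02 to 2.31), and that 17.0 kb upstream of Fosb was lower, at 0.641-fold (0.455 to 0.903). Over all regions, 4.28% were as much higher and 4.58% as much lower.

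For CDM-WDO over CDM-CDO the median log2 ratio was 0.28 against 0.00 over all, with 18 of 22 above 0 (50.2% of all), and 4 of 22 were past 1.5-fold higher and 0 lower (8.76% and 7.74% of all). They were 47.3 kb upstream of Atf3 (2.71-fold, 1.61 to 4.71), the start of Atf3 (1.88-fold, 1.5 to 2.37), 59.2 kb downstream of Fos (1.90-fold, 1.29 to 2.82) and 6.5 kb upstream of Fosb (1.68-fold, 1.14 to 2.48). For WDM-WDO over WDM-CDO the median was 0.24 against 0.03, with 14 of 22 above 0 (54.0% of all), and 2 were past 1.5-fold higher and 0 lower (10% and 6.08% of all). These were again the region 47.3 kb upstream of Atf3 (3.0-fold, 2.05 to 4.44) and the one 53.9 kb upstream of Jun (1.56-fold, 1.11 to 2.19). The ratio at the Atf3 region was higher than at 99.7% of all shared regions for CD mothers and 99.9% for WD mothers. It was singled out as the highest ratio of the 22 in both comparisons, so these ranks are no separate support. The 2 comparisons share no list, but both set a list tagged 12w against one tagged 08w. In CDM-CDO the Atf3 region was weak, with 22 reads and a −log10 q of 3.64. The intervals cover counting error, and the spread between animals is not known. At Jund the ratio of WDM-WDO to WDM-CDO was 0.714 (0.611 to 0.833).

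**Figure D4:**
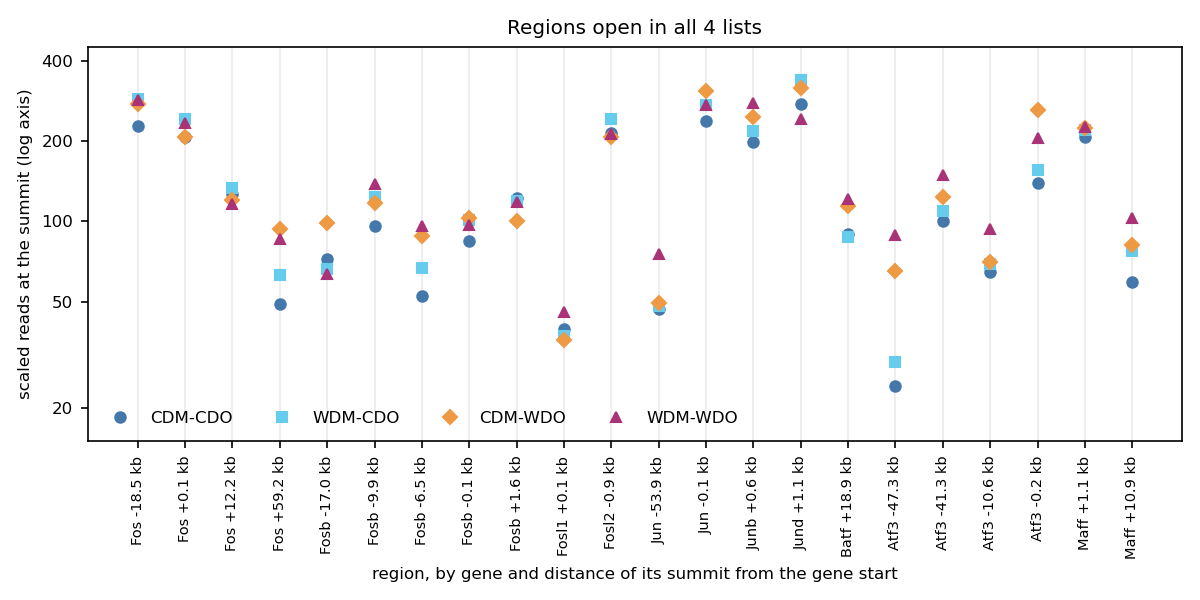
Scaled reads at the summit (log axis) of the 22 regions in all 4 lists, ordered by gene and by distance of the summit from the gene start; each symbol is 1 list. The 4 symbols lie furthest apart 47.3 kb upstream of Atf3, from 24.1 to 88.8 reads, and the region 18.5 kb upstream of Fos is level from 228 to 286.

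Across the 22 shared regions, summits of the 4 lists lay a median of 146 bp apart (19 to 975 bp), against 107 bp for the 8607 regions at least as strong. They lay furthest apart at Fosl1, by 975 bp, and 53.9 kb upstream of Jun, by 897 bp. Median peak widths were 998, 1233, 1033 and 1100.5 bp, against 875, 919, 707 and 881 bp for those 8607. The 8607 were not otherwise matched in strength. Of the 22, 19 were among the strongest 10% of all regions, as were 3959 of the 10193 regions of all genes in all 4 lists. Whether width and summit spread follow strength was not tested. The Jund peak measured 2626 and 2643 bp in the CDO lists and 1175 bp in CDM-WDO; in WDM-WDO it was 2 peaks of 1124 and 865 bp. The Jun start peak measured 3071, 3194, 1964 and 2883 bp, narrowest in CDM-WDO. At Junb, 1 peak of 4027 bp in WDM-CDO matched 2 peaks in each of the other lists.

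Other genes of the pathway were counted by gene-end peaks, in the order CDM-CDO, WDM-CDO, CDM-WDO and WDM-WDO. Among all protein-coding genes 48.1%, 51.2%, 40.2% and 47.6% had such a peak, so CDM-WDO was lowest there too. Of 18 other bZIP partners 17, 17, 15 and 17 had one. Of 14 genes of the MAP kinase route that leads to Jun and Fos, it was 12, 12, 11 and 13. Map3k1, a kinase upstream of JNK, had 123 and 101 reads in the CDO lists, 22 in WDM-WDO and no call in CDM-WDO. Mapk3 (ERK1) was called in WDM-WDO alone (35 reads, −log10 q 3.14). Of serum response factor and its partners, 4, 5, 4 and 6 of 6 had one, and Srf itself was called in WDM-WDO alone (30 reads, −log10 q 3.21). The calls of Mapk3 and Srf were weak, as 76.8% of WDM-WDO peaks had a −log10 q above 3.38. Of 11 feedback inhibitors of MAP kinases it was 10, 11, 9 and 11, with Spry1 uncalled in CDM-WDO and Spry2 uncalled in CDM-CDO and CDM-WDO.

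Of 18 genes known as AP-1 targets in activated endothelium, 9, 10, 10 and 12 had a gene-end peak (50%, 55.6%, 55.6% and 66.7%), against 48.1%, 51.2%, 40.2% and 47.6% of all genes. Ptgs2, which encodes cyclooxygenase 2, was called with 29, 37 and 57 reads in all lists but CDM-WDO. Ccl2, which encodes a monocyte-attracting chemokine, was called in both WDO lists (32 and 58 reads) and Edn1, which encodes endothelin 1, in all lists but CDM-CDO (50, 30 and 46 reads). Sele, Vcam1, Mmp3, Mmp9 and Timp1 had no gene-end peak in any list.

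The lists held 22178, 28319, 18962 and 26275 peaks, with a genome background of 4.84 to 6.08 reads. The marker counts below stand beside gene-end peaks at 48.1%, 51.2%, 40.2% and 47.6% of all protein-coding genes. Counts of regions near markers stand beside 49.0%, 62.5%, 39.8% and 58.5% of all regions near genes. Of 16 endothelial markers, 4, 6, 5 and 4 had a gene-end peak, and 10, with Cdh5, Pecam1 and Tek among them, had none in any list, while 26, 50, 38 and 31 of the 77 regions near these 16 genes were called. Markers of macrophages and monocytes had a gene-end peak at 4, 4, 3 and 11 of 12 genes (all but Cx3cr1 in at least 1 list), and 12, 13, 10 and 29 of their 36 regions were called. The list with most regions of the AP-1 genes, WDM-WDO, was also the one with most regions of these markers. Neutrophil markers had 0, 0, 1 and 4 of 7, T cell markers 5, 5, 1 and 3 of 8, B cell markers 3, 3, 1 and 2 of 6, smooth muscle markers 3, 3, 1 and 1 of 9, and fibroblast markers 1, 2, 1 and 2 of 9. As for macrophages, the part of these cells in the results on AP-1 genes was not tested.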

How the data were processed

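Open chromatin was compared at 10 AP-1 subunit genes between 4 peak lists, 1 per diet group, from 8 ATAC-seq samples (2 per group); the 4 H3K27ac samples were not analysed here. It is not stated whether the samples of a group were pooled before peak calling. According to the submitters' processing notes, the build was GRCm38 (mm10) and the tools included the peak caller MACS2 2.2.9.1, the aligner Bowtie2 2.4.5, SAMtools 1.13, Trim Galore 0.6.10, FastQC 0.12.1 and deepTools 3.5.4. Their settings, and any shift of read ends for the transposase, are not stated in the sources used here.

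Each peak's fold enrichment, a ratio over local background, the −log10 p and −log10 q values and its score were used as the authors deposited them. The lowest −log10 q of a list was 1.30 to 1.31. Pileups were recovered as the whole number of reads that gives both the fold enrichment (with 1 read added to pileup and background) and the Poisson −log10 p, which 100% of peaks met (relative tolerance 0.0001); the recovery was tested on simulated data. They were scaled by the median ratio over 5176 strong regions in all 4 lists. Median pileups were 36, 38, 31 and 39 reads in CDM-CDO, WDM-CDO, CDM-WDO and WDM-WDO. Reads without molecular identifiers are not independent molecules, so all intervals cover counting error only.

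Peaks on chromosomes 1 to 19 and X overlapping by at least 1 bp were merged into 48003 regions and assigned to the nearest of 21631 protein-coding genes of a RefSeq table (GRCm38.p6) within 100 kb. Distances run from the 5′ end of the gene span, on the strand given by the RefSeq promoter table, to the median summit; for Fosl1 they run from its lower-coordinate end. Shares carry 95% Wilson intervals, and ratios of pileups exact binomial ones. With 1 list per group no test was made. The member genes and the gene lists were chosen with earlier results of these data known. Described in full were the regions at gene ends, those in all lists, and the 3 one-sided regions with the highest −log10 q per comparison and direction; further regions were named to complete the account of each gene. Of each pathway list, up to 4 genes were eligible as examples, those with the strongest one-sided gene-end peak. Mkl1 and Mkl2 were matched through older symbols. Alternatives were 50% reciprocal overlap, −log10 q of at least 2, assignment within 10 kb, equal list length (18962 peaks) and a gene-end window of 500 bp. Python 3.11.15, numpy 2.4.6, pandas 2.3.3, scipy 1.17.1 and matplotlib 3.10.9 were used.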

Additional observations from a re-analysis of the deposited data

Results flagged for a closer look

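A region past the 3′ end of Fosb (chr7:19300847-19301893, 9.2 kb from the start) was called on opposite sides of the maternal comparison under the 2 offspring diets. With CD offspring it was called in CDM-CDO, with 39 reads, and not in WDM-CDO. With WD offspring it was called in WDM-WDO, with 55 reads, and not in CDM-WDO. The difference was not tested, since each group had 1 list. The region was weak, with a −log10 q of 3.39 and 5.02 over a local background of 16.9 and 24.3 reads. Expected from CDM-CDO were 57.5 reads in WDM-CDO, where 43 were needed for a call, and from WDM-WDO 37.8 in CDM-WDO, where 33 were needed.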

How the results depend on the processing

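Regions in all 4 lists numbered 20 with 50% reciprocal overlap, 22 with −log10 q of at least 2, 15 within 10 kb and 22 at equal list length, against 22 as reported. Gene-end counts stayed at 9 or 10 of 10, apart from 6 in CDM-WDO with a window of 500 bp. The threshold of −log10 q of at least 2 moved none of the 13 counts by over 1.5 times. Within 10 kb of genes, where distal regions are left out by construction, the counts became 2 for WDM-CDO without CDM-CDO (7 as reported), 1 for the reverse (2), 5 for WDM-WDO without CDM-WDO (14), 1 for CDM-WDO without CDM-CDO (4), 3 for WDM-WDO without WDM-CDO (11) and 1 for the reverse (2). With 50% reciprocal overlap they became 2 for CDM-WDO without WDM-WDO (1), 5 for CDM-CDO without CDM-WDO (3) and 4 for WDM-CDO without WDM-WDO (2). At equal list length they became 2 for CDM-WDO without WDM-WDO (1) and 1 for WDM-CDO without WDM-WDO (2). For counts this small the cause was not tested. Subtracting the local background from pileups, chosen after seeing the data, gave median log2 ratios of 0.17, 0.14, 0.30 and 0.21, where 0.17, 0.10, 0.28 and 0.24 were reported. No paired analysis was possible because each group had 1 list that does not separate its samples, and for the same reason no replicate could be left out. What each list could call was limited too: the lowest pileup of a peak was 14, 15, 15 and 16 reads. The genome background was 4.84, 5.59, 5.49 and 6.08 reads. The scaling factors, 0.915, 1.35, 0.751 and 1.09, did not follow that order.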
